A study of Neurospora crassa with 30 samples.

Results

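The expression of 6 genes whose products act on starch and maltose was followed in *Neurospora crassa*, a filamentous fungus, on 10 carbon sources. The genes were taken by identifier for their annotated function and are 6 of the 9758 genes counted in each sample. They are *gla-1* (NCU01517), *gh31-3* (NCU04674), NCU08746, *gh13-2* (NCU09805), *gh13-1* (NCU08131) and *gh13-6* (NCU05873). The rule uses no measured level, but it was set with earlier results of these data known. The study also names all 6 as induced by starch polysaccharides or by maltose in its other samples. How many of the 6 are higher in maltose is therefore not independent of that choice.

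All samples came from 1 wild type strain, FGSC 2489. Mycelia were grown for 16 hrs in 3 mL of Vogel's minimal medium with 2% sucrose at 25°C, 200 rpm and constant light, washed, and then held for 4 hrs on a single carbon source before RNA was taken from whole mycelia. The concentration was 2 mM for maltose, sorbose, trehalose, cellobiose, fructose, glycerol, mannose and xylose. At equal molarity the disaccharides maltose, trehalose and cellobiose supply more carbon than the others. Kind and amount of carbon therefore cannot be told apart between them and the others. Avicel, which is purified crystalline cellulose, is put at 2% (w/v) in the design text. The methods give a lower percentage by weight for avicel and for xyloglucan, so their concentration is uncertain here. Each carbon source had 3 replicates, 30 samples in all, and no sample without carbon was analysed here, so every difference is between carbon sources.

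Starch is a polymer of glucose joined by α-1,4 bonds with α-1,6 branches. Fungi open it from the inside with α-amylases of glycoside hydrolase family GH13 and from its ends with glucoamylase, and lytic polysaccharide monooxygenases (LPMOs) cut crystalline starch by oxidation. The maltose that is released, a disaccharide of glucose with an α bond, is split to glucose by α-glucosidases. Trehalose and cellobiose are also disaccharides of glucose, but with other bonds, and cellobiose is the unit of cellulose. By annotation, *gla-1* encodes a glucoamylase with a starch-binding domain, NCU08746 a starch-active LPMO with such a domain, *gh31-3* an α-glucosidase, and *gh13-1*, *gh13-2* and *gh13-6* GH13 enzymes, of which *gh13-1* and *gh13-2* are named α-amylases and *gh13-6* is named Amy1. NCU08746 therefore cuts starch but is not a hydrolase in the strict sense. The study calls *gh13-6* an α-amylase gene as well.

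Reads counted on genes ran from 13018483 to 21925749 per sample, and the 6 genes together took 0.128% to 1.84% of them. The mycelial markers *hex-1*, a Woronin body protein, and actin stood between 914 and 2842 and between 1299 and 2189 normalized CPM (counts scaled to library size) in the 30 samples. The 3 conidial markers *con-6*, *con-10* and *eas*, of which none was at 0 in any sample, differed between carbon sources. Their summed level ran from 10611 to 23163 CPM in maltose, from 4298 to 6859 in sorbose, from 5314 to 9918 in trehalose, from 981 to 1432 in cellobiose and from 15884 to 27595 in avicel. On the other 5 carbon sources it lay between 5899 and 17038 CPM. The part of this difference in the results was not tested, and in bulk RNA a smaller share of conidiating cells cannot be told apart from less RNA per cell.

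The 6 genes fell into a group of 4 that was highest in maltose and a pair that was not. *gla-1*, *gh31-3*, NCU08746 and *gh13-2* had their highest mean in maltose, followed in each of them by trehalose and then sorbose, whereas *gh13-1* was highest in mannose and *gh13-6* in glycerol. Each of the 6 varied over the carbon sources by edgeR's quasi-likelihood F-test (adjusted p under 0.01, Benjamini-Hochberg), as did 93.1% of all 8501 genes tested, so the variation itself did not set them apart. Ranked by the F statistic among the 8501 genes, *gh13-2* stood at 2, NCU08746 at 9, *gla-1* at 75, *gh31-3* at 121, *gh13-6* at 663 and *gh13-1* at 1248. The ratio of the highest to the lowest mean was 579 for NCU08746, 104.3 for *gh13-2*, 35.1 for *gla-1*, 22.1 for *gh31-3*, 5.47 for *gh13-6* and 2.23 for *gh13-1*.

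**Figure D1:**
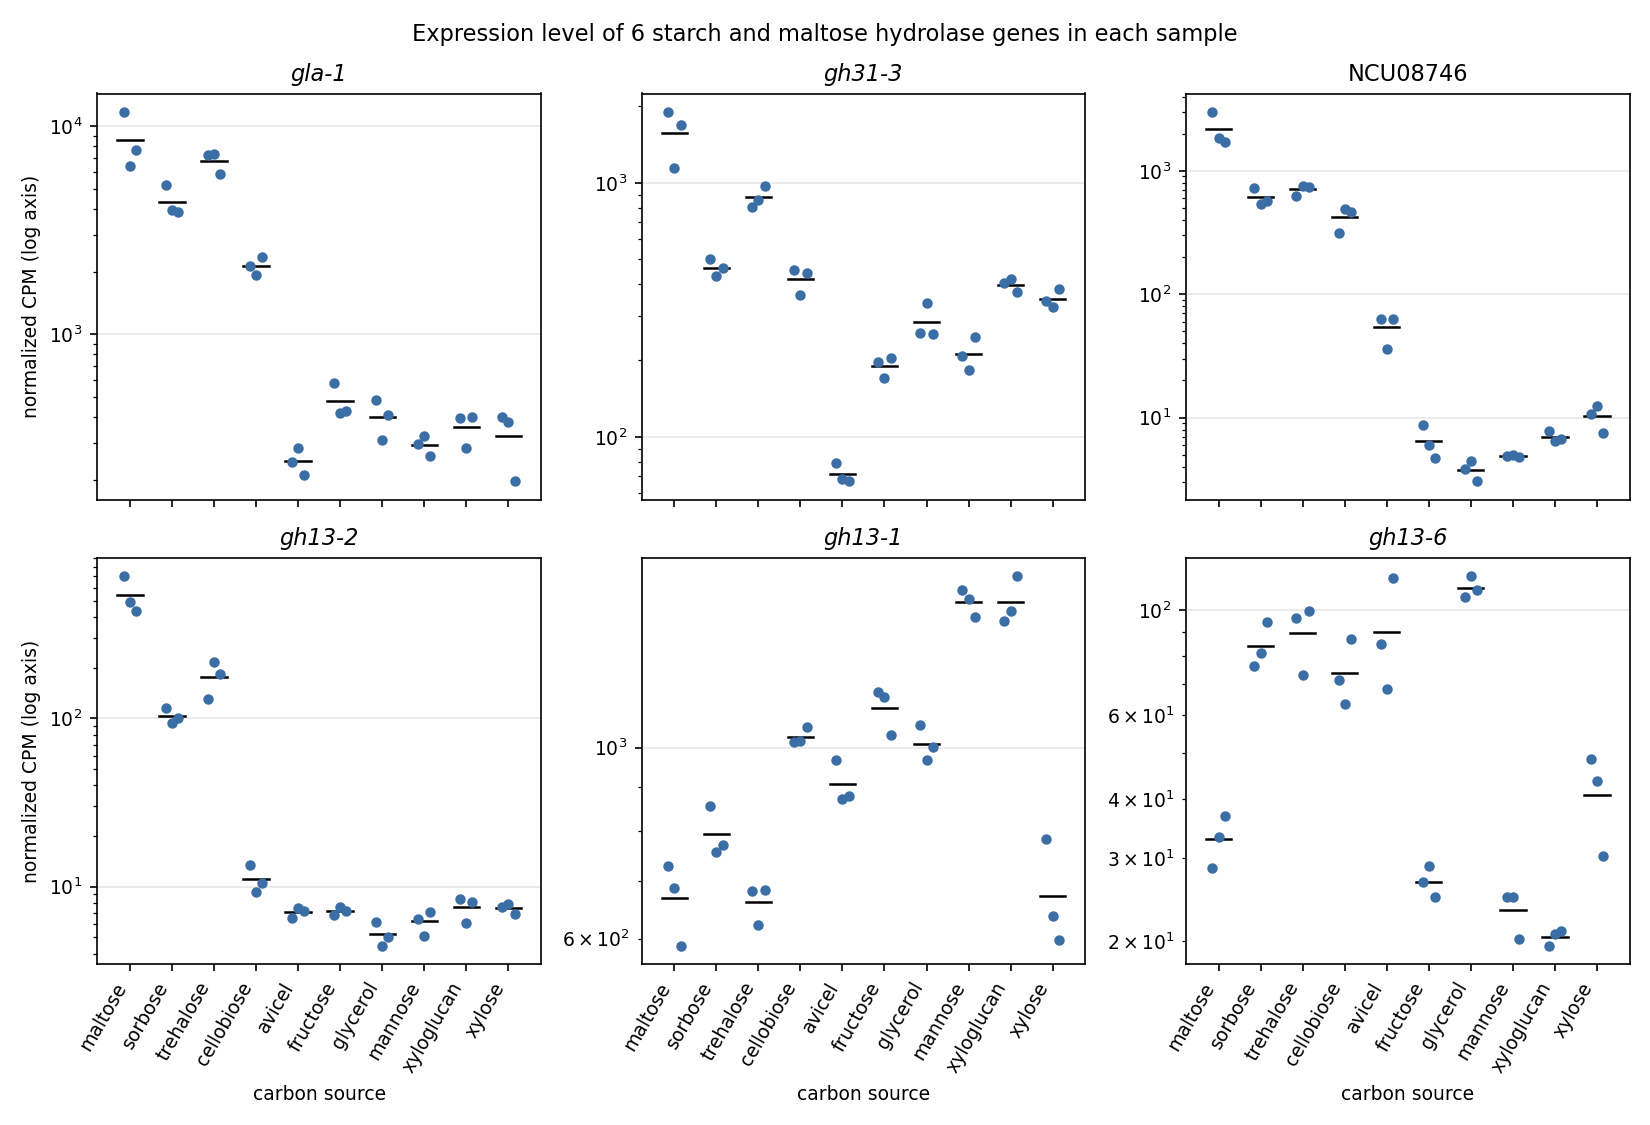
Normalized CPM of each of the 6 genes (log axis, own range in each panel) in the 30 samples, by carbon source; points are single samples and black lines are means of 3 replicates. *gla-1*, *gh31-3*, NCU08746 and *gh13-2* are highest in maltose, *gh13-1* ranges only 2.23-fold between means, and *gh13-6* is highest in glycerol.

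The glucoamylase gene *gla-1* lies on chromosome II, from 3214128 to 3217500 in assembly NC12. It stood at 11698, 6458 and 7696 CPM in the maltose replicates (mean 8617 ± 2739, SD, n = 3), and at 7291, 7353 and 5862 CPM in trehalose (6835 ± 843). The values overlapped, and the 2 sugars were not distinguished (log2 fold change 0.33 ± 0.24 SE, edgeR adjusted p = 0.291). In sorbose the replicates gave 5189, 3963 and 3851 CPM (4334 ± 743), and in cellobiose 2126, 1929 and 2345 CPM (2133 ± 208). The sorbose samples lay below every trehalose sample, although this step did not pass the threshold of 0.01 (1.58-fold, edgeR adjusted p = 0.0199). Sorbose exceeded cellobiose 2.03-fold (edgeR adjusted p = 0.000676), and cellobiose exceeded the next source, fructose, 4.48-fold (edgeR adjusted p = 9.55e-08). The remaining 6 means declined in steps that passed no test between neighbours, with fructose at 476 ± 91.2, glycerol at 401 ± 88.1, xyloglucan at 359 ± 65.7, xylose at 323 ± 111, mannose at 294 ± 31.9 and avicel at 246 ± 36.7 CPM (SD, n = 3 each). The order of *gla-1* thus had an upper set of 4 carbon sources, maltose, trehalose, sorbose and cellobiose, and a lower set of 6. The lower set was not uniform, since its highest source, fructose, was 1.94-fold above its lowest, avicel (edgeR adjusted p = 0.00177).

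The LPMO gene NCU08746, on chromosome II from 3873518 to 3875060, had the widest range of the 6. It stood at 2999, 1834 and 1713 CPM in maltose (2182 ± 710.4, SD, n = 3), against 622, 759 and 741 CPM in trehalose (707 ± 74.6), with no overlap and a 3.09-fold difference (edgeR adjusted p = 3.13e-05). Sorbose followed with 723, 536 and 571 CPM (610.3 ± 99.5) and cellobiose with 312, 495 and 460.1 CPM (423 ± 97.1). Avicel held an intermediate place, with 63.2, 36.2 and 62.6 CPM (54.0 ± 15.4). It was 7.83-fold below cellobiose (edgeR adjusted p = 4.57e-10) and 5.30-fold above xylose, the next lower source (edgeR adjusted p = 5.89e-08). On xylose the mean was 10.2 ± 2.48 CPM, and glycerol, the lowest, had 3.82, 4.44 and 3.04 CPM (3.77 ± 0.700). Even the lowest sample held 43 reads of this gene, so the low levels were above 0 everywhere, and the highest held 42411.

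The α-glucosidase gene *gh31-3*, on chromosome V from 1229388 to 1233183, stood at 1903, 1143 and 1693 CPM in maltose (1580 ± 392, SD, n = 3), against 805, 856 and 968 CPM in trehalose (876 ± 83.7). Every maltose sample exceeded every trehalose sample. Trehalose in turn was 1.89-fold above sorbose (edgeR adjusted p = 1.96e-05), which had 502, 428 and 460.5 CPM. From sorbose (464 ± 37.1) over cellobiose (419 ± 50.6), xyloglucan (398 ± 24.2), xylose (350.2 ± 29.9), glycerol (282 ± 48.0), mannose (213 ± 32.8) and fructose (190.4 ± 18.0), no neighbouring pair differed at the threshold. Avicel stood below all of them, at 79.1, 68.2 and 66.8 CPM (71.4 ± 6.75), 2.67-fold under fructose (edgeR adjusted p = 8.67e-08). Sources further apart in the run from sorbose to fructose did differ, with sorbose 2.44-fold above fructose (edgeR adjusted p = 3.27e-07). Between neighbours below sorbose, the step at avicel was the single one that passed for *gh31-3*. Its annotated span overlaps that of NCU04675 by 695 bases; NCU04675 averaged 137 CPM in maltose and between 76.8 and 166 CPM over the carbon sources. The part of this overlap in the counts of *gh31-3* was not tested.

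The α-amylase gene *gh13-2*, on chromosome I from 4104873 to 4108609, was high on 3 carbon sources. It stood at 699, 495 and 437 CPM in maltose (544 ± 138, SD, n = 3), at 130.5, 217 and 183 CPM in trehalose (177 ± 43.6) and at 115, 93.4 and 100.3 CPM in sorbose (103 ± 11.1). These 3 groups did not overlap. Maltose was 3.07-fold above trehalose (edgeR adjusted p = 1.62e-06), trehalose 1.72-fold above sorbose (edgeR adjusted p = 0.000402) and sorbose 9.31-fold above cellobiose (edgeR adjusted p = 1.99e-12). Cellobiose had 13.4, 9.25 and 10.5 CPM (11.1 ± 2.14), and the means of the last 6 sources lay between 5.21 CPM in glycerol and 7.52 CPM in xyloglucan. No neighbours among the 7 sources from cellobiose downward differed, although cellobiose was 2.12-fold above glycerol, the lowest (edgeR adjusted p = 9.74e-05). *gh13-2* was thus low in cellobiose, where *gla-1* and NCU08746 were still well above their lowest levels.

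Another α-amylase gene, *gh13-1*, lies on chromosome VII from 3466859 to 3469892 and varied little. It stood at 1525, 1490.1 and 1418 CPM in mannose (1478 ± 54.3, SD, n = 3) and at 1402, 1443 and 1581 CPM in xyloglucan (1475 ± 93.8). Fructose followed at 1113 ± 68.8, a step of 1.33-fold below xyloglucan (edgeR adjusted p = 0.00365) and the single step between neighbours that passed. Cellobiose averaged 1030.2 ± 22.7, glycerol 1011 ± 49.0, avicel 906 ± 54.2 and sorbose 794 ± 54.0 CPM (SD, n = 3 each). At the low end, xylose had 783, 637 and 598 CPM (673 ± 97.5), maltose 728, 688 and 588 CPM (668 ± 72.1) and trehalose 682, 622 and 684 CPM (662 ± 35.2). These 3 groups overlapped, so that both sugars on which *gla-1* was highest were among the 3 lowest for *gh13-1*.

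*gh13-6*, on chromosome VII from 4120568 to 4123484, had a low level in all samples, between 19.6 and 118 CPM. It stood at 107, 118 and 110.4 CPM in glycerol (112 ± 5.63, SD, n = 3), at 84.7, 68.2 and 117 CPM in avicel (89.9 ± 24.8) and at 96.2, 73.0 and 99.7 CPM in trehalose (89.6 ± 14.5). Sorbose (83.9 ± 9.36) and cellobiose (73.8 ± 12.0) came next, and no neighbours among these 5 differed. The ends of the 5 did, with glycerol 1.51-fold above cellobiose (edgeR adjusted p = 0.00478). A step of 1.81-fold separated cellobiose from xylose (40.8 ± 9.40, edgeR adjusted p = 0.000254). Below it lay maltose, with 28.5, 33.2 and 36.8 CPM (32.9 ± 4.17), fructose (26.7 ± 2.03), mannose (23.3 ± 2.64) and xyloglucan (20.4 ± 0.790). *gh13-6* was therefore among the 4 lowest carbon sources in maltose but among the 3 highest in trehalose. The annotated span overlaps that of NCU05872 by 379 bases, and NCU05872 averaged at most 2.13 CPM on any carbon source.

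Over the 6 genes, 13 of the 54 pairs of carbon sources that were neighbours in a gene's order differed at an adjusted p under 0.01 (edgeR). Of the tests of all genes over the same pairs, 38.5% passed, but the pairs are the closest in level for the member that set the order and not for other genes, so the 2 shares cannot be compared. Sources further apart in an order can differ where no neighbours between them do. For example, *gh13-1* was 1.68-fold higher in fructose than in trehalose (edgeR adjusted p = 6.04e-07). The spread between replicates, as the median coefficient of variation over the 10 carbon sources, was 6.08% for *gh13-1*, 9.51% for *gh31-3*, 12.0% for *gh13-6*, 16.9% for *gh13-2*, 17.7% for *gla-1* and 20.8% for NCU08746.

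Maltose, the sugar that starch yields, was compared with each of the 9 other carbon sources. To be called, a gene had to differ by over 2-fold with an adjusted p under 0.01 (edgeR's quasi-likelihood test, Benjamini-Hochberg over 8501 genes). *gla-1*, *gh31-3*, NCU08746 and *gh13-2* were higher in maltose than in cellobiose, avicel, fructose, glycerol, mannose, xyloglucan and xylose. *gh13-2* and NCU08746 were also higher than in sorbose and trehalose, so these 2 passed against all 9 sources.

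Against cellobiose, a disaccharide of the same concentration, 4 of the 6 genes were higher in maltose, where 12.5% of all genes tested were, and *gh13-6* was lower, where 9.05% were. In log2 fold change this was 5.62 ± 0.21 (SE) for *gh13-2*, 2.37 ± 0.24 for NCU08746, 2.01 ± 0.25 for *gla-1* and 1.91 ± 0.16 for *gh31-3* (edgeR adjusted p at most 2.16e-07), and no maltose sample overlapped a cellobiose sample. *gh13-6* fell by 1.17 ± 0.17 (edgeR adjusted p = 3.84e-06) and *gh13-1* had a log2 fold change of -0.62 ± 0.10, which passed on p but not on fold. The call of *gh13-6* was lost without TMM scaling (log2 fold change -0.96) and in a test against a fold change of 2 (glmTreat in edgeR). The median log2 fold change of the 6 genes was 1.96, against 0.05 for all genes.

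Against trehalose, 2 of the 6 were higher in maltose, where 2.58% of all genes were, and 1 was lower, where 2.34% were. NCU08746 had a log2 fold change of 1.63 ± 0.24 (edgeR adjusted p = 3.13e-05) and *gh13-2* of 1.62 ± 0.17 (edgeR adjusted p = 1.62e-06). *gh13-6* fell by 1.45 ± 0.18 (edgeR adjusted p = 4.75e-06), and the highest maltose sample, at 36.8 CPM, was below the lowest trehalose sample, at 73.0. *gh31-3* was higher by less than 2-fold (log2 fold change 0.85 ± 0.15, edgeR adjusted p = 0.000262), and *gla-1* and *gh13-1* were not distinguished (log2 fold changes 0.33 and 0.01). Without maltose replicate 2 the log2 fold change of *gh31-3* was 1.04 and passed. With glmTreat none of the 3 calls remained, and of all genes 10 were then higher and 4 lower, compared with 219 higher and 199 lower before.

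Against sorbose, a hexose known for keeping *N. crassa* colonies compact, 3 of the 6 were higher in maltose, where 5.25% of all genes were, and *gh13-6* was lower, where 5.56% were. In log2 fold change this was 2.40 ± 0.18 for *gh13-2*, 1.84 ± 0.24 for NCU08746 and 1.77 ± 0.16 for *gh31-3* (SE, edgeR adjusted p at most 1.41e-06), and *gh13-6* had -1.35 ± 0.18. *gla-1* was just under the fold threshold, with a log2 fold change of 0.99 ± 0.24 (edgeR adjusted p = 0.00164). It passed without maltose replicate 2 (1.16), without maltose replicate 3 (1.07) or without sorbose replicate 1 (1.14), so the replicates do not settle on which side of 2-fold it lies. The call of *gh13-6* was lost in a test against a fold change of 2.

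The 6 other comparisons with maltose had the same 4 genes higher. Against avicel, 4 were higher (7.29% of all genes were) and *gh13-6* was lower (8.14% were), with log2 fold changes of 6.27 ± 0.22 for *gh13-2*, 5.34 ± 0.28 for NCU08746, 5.13 ± 0.28 for *gla-1* and 4.47 ± 0.18 for *gh31-3* (edgeR adjusted p at most 5.17e-13). Against glycerol, 4 were higher (3.34% of all genes) and *gh13-6* was lower (4.76%), by 1.76 ± 0.18 on the log2 scale. Against fructose 4 were higher (9.75% of all genes) and none lower, and against xylose 4 were higher (3.65% of all genes) and none lower. Against mannose 4 were higher (12.2% of all genes) and *gh13-1* was lower (10.6%), and likewise against xyloglucan (11.3% higher and 9.66% lower of all genes). In these last comparisons *gh13-1* fell by 1.14 ± 0.10 in maltose relative to mannose and by 1.14 ± 0.10 relative to xyloglucan (edgeR adjusted p at most 1.36e-09), calls that a test against a fold change of 2 did not keep, and the same test dropped *gh13-6* against avicel. The largest values of the whole set belonged to NCU08746, with 9.17 ± 0.34 against glycerol, 8.81 ± 0.33 against mannose and 8.39 ± 0.32 against fructose.

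**Figure D2:**
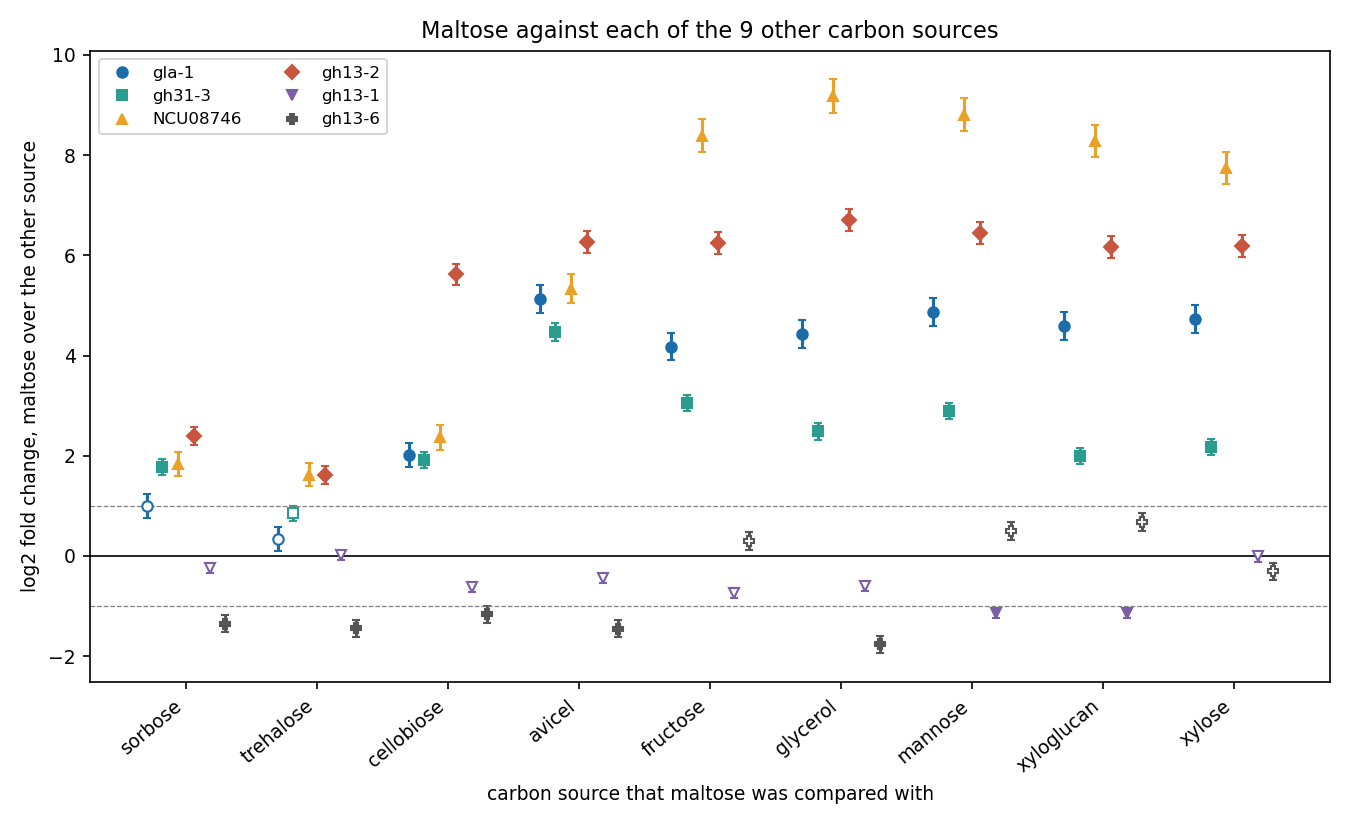
Log2 fold change (± SE) of each of the 6 genes in maltose over each of 9 other carbon sources, from 1 edgeR fit of all 30 samples; filled symbols passed both thresholds, open symbols did not, and dashed lines mark 2-fold. NCU08746 reaches 9.17 against glycerol, *gh13-2* is above 1 against every source, and *gh13-6* is below -1 against 5 of them (sorbose, trehalose, cellobiose, avicel, glycerol).

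The other disaccharides of glucose were compared with each other. In trehalose against cellobiose, 3 of the 6 genes were higher, where 9.05% of all genes were, and none lower. *gh13-2* had a log2 fold change of 4.00 ± 0.20 (edgeR adjusted p = 1.22e-13), *gla-1* of 1.68 ± 0.24 and *gh31-3* of 1.06 ± 0.16 (edgeR adjusted p at most 3.56e-06). NCU08746 was 1.67-fold higher (edgeR adjusted p = 0.00939) and did not reach 2-fold, and *gh13-1* had -0.64 ± 0.10. The value of *gh31-3* was 0.97 without cellobiose replicate 2 and 0.99 without trehalose replicate 3, under 2-fold, and a test against a fold change of 2 kept only *gh13-2*.

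Sorbose was set against the mean of the 8 carbon sources other than maltose and sorbose, because several of the genes had been seen to be high there. In it, 3 of the 6 were higher, where 4.46% of all genes were, and none was lower. NCU08746 had a log2 fold change of 4.63 ± 0.13, *gh13-2* of 3.26 ± 0.11 and *gla-1* of 2.79 ± 0.14 (edgeR adjusted p at most 7.09e-14). *gh31-3* and *gh13-6* passed on p but not on fold, with log2 fold changes of 0.71 ± 0.11 and 0.77 ± 0.12. The 8 sources include trehalose and cellobiose, on which *gla-1* averaged 6835 and 2133 CPM. In trehalose NCU08746 averaged 707 CPM and *gh13-2* 177 CPM, against 610.3 and 103 CPM in sorbose. Between these sugars NCU08746 was not distinguished (edgeR adjusted p = 0.437), and *gh13-2* was lower in sorbose (edgeR adjusted p = 0.000402).

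Cellobiose against avicel, the soluble unit against the cellulose polymer, was added after the levels had been seen. Here 3 of the 6 were higher in cellobiose, where 11.6% of all genes were, with log2 fold changes of 3.12 ± 0.26 for *gla-1*, 2.97 ± 0.25 for NCU08746 and 2.55 ± 0.16 for *gh31-3* (edgeR adjusted p at most 4.57e-10). *gh13-2* had 0.65 ± 0.20 (edgeR adjusted p = 0.00588), under 2-fold. The summed level of the 3 conidial markers was lowest in cellobiose and highest in avicel, set mainly by *eas* (mean 1191 CPM in cellobiose and 17583 CPM in avicel), while *con-6* and *con-10* had their highest means in mannose. Their part in this difference was not tested.

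On a per-length scale (RPKM, CPM per kilobase of annotated gene span), which allows levels of different genes to be compared, *gla-1* was the most abundant of the 6 in maltose at 2555 ± 812 RPKM (SD, n = 3). NCU08746 followed at 1414 ± 460.4, *gh31-3* at 416 ± 103, *gh13-1* at 220.3 ± 23.8, *gh13-2* at 146 ± 36.8 and *gh13-6* at 11.3 ± 1.43. In mannose the order was another, with *gh13-1* at 487 ± 17.9, *gla-1* at 87.0 ± 9.45 and NCU08746 at 3.15 ± 0.0747 RPKM. The summed level of the 6 was 4762 ± 1389 RPKM in maltose, 3012 ± 207 in trehalose, 2121 ± 310.0 in sorbose and 1384 ± 93.0 in cellobiose. It lay between 433 in xylose and 711 in xyloglucan on the other 6 sources.

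The makeup of this sum changed with the carbon source. *gla-1* made up 53.4% of it in maltose, 67.1% in trehalose, 60.5% in sorbose and 45.7% in cellobiose, but 13.5% to 24.5% elsewhere. *gh13-1* made up 4.82% in maltose, 7.29% in trehalose, 12.4% in sorbose and 24.6% in cellobiose, and 51.3% to 75.7% elsewhere. The LPMO gene NCU08746 held 29.6% of the sum in maltose and 7.60% in avicel, and at most 1.53% in fructose, glycerol, mannose, xyloglucan and xylose. Thus the main transcript of the set was glucoamylase in 4 carbon sources and the α-amylase *gh13-1* in the other 6. These shares are a description with no test, and they depend on gene spans that include introns.

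**Figure D3:**
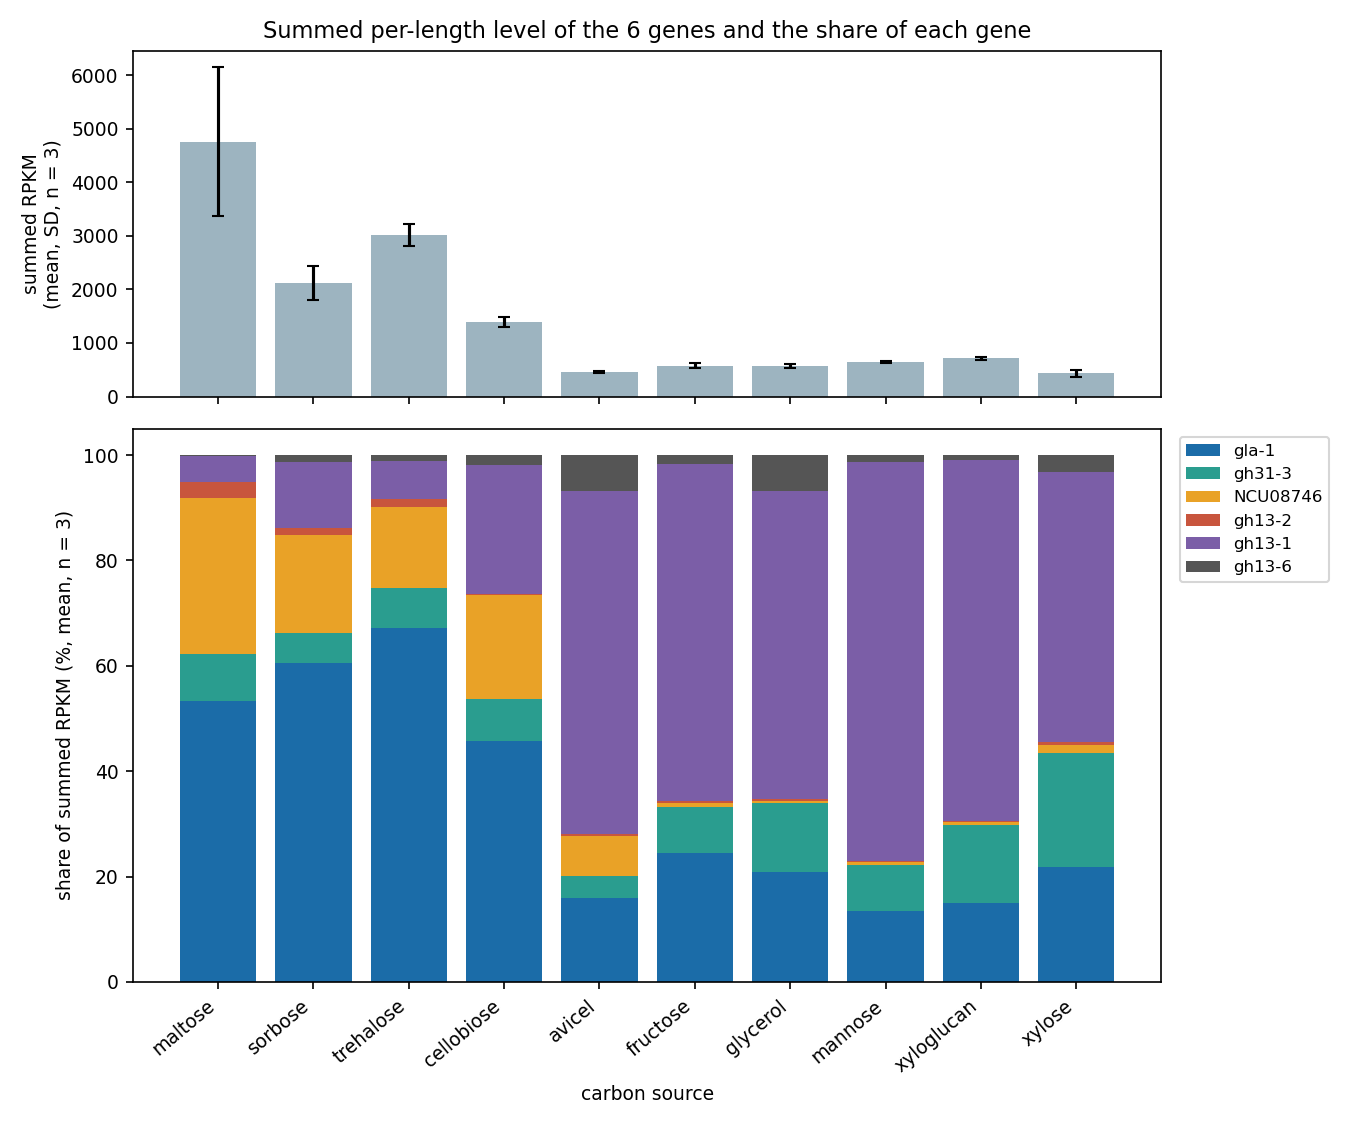
Upper panel, summed RPKM of the 6 genes on each carbon source (bars, mean of 3 replicates, error bars SD); lower panel, the mean share of each gene in that sum (%). *gla-1* holds 45.7% to 67.1% in maltose, sorbose, trehalose and cellobiose, and *gh13-1* holds 51.3% to 75.7% on the other 6 sources.

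The likeness of the patterns was measured as Pearson's r over the 10 carbon-source means of log2 CPM, a description over 10 points that share their libraries. Among the 6 genes, *gla-1* was most like *gh13-2* (0.93) and NCU08746 (0.92), and NCU08746 and *gh13-2* were at 0.87. *gh31-3* was at 0.82 with *gla-1*, 0.80 with *gh13-2* and 0.63 with NCU08746. *gh13-1* ran the other way, between -0.47 and -0.67 with each of the 5 others, and *gh13-6* was between -0.06 and 0.36 with the 4 genes that peaked in maltose.

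For each gene, the 3 most similar genes among the 7221 that reached 10 CPM on at least 1 carbon source were looked up. For *gla-1* these were NCU00905 (0.98), NCU11222 (0.97) and NCU09017 (0.95). NCU11222 lies on the same chromosome as *gla-1*, from 3208566 to 3211252, with 2875 bases between the annotated spans, and was highest in maltose at 85.5 CPM and lowest in xylose at 35.5. For *gh13-2* they were NCU03284 (0.95), *tre-1* (0.95), which encodes a trehalase that splits trehalose to glucose, and NCU11222 (0.94). *tre-1* was highest in maltose at 972 CPM and lowest in avicel at 83.8. NCU05041, NCU00905 and NCU04830 (0.95, 0.94 and 0.92) were closest to NCU08746, and NCU07457, *bdp-1* and *tca-9* (0.97, 0.92 and 0.89) to *gh31-3*. *gh13-1* was closest to NCU06543, NCU02335 and NCU09553 (each 0.96), all of which were lowest in trehalose. *gh13-6* was closest to NCU05723, NCU03602 and NCU08621 (0.97, 0.96 and 0.95), all lowest in xyloglucan.

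A list of 17 other genes of α-glucan and α-glucoside use gave the surroundings of the 6. It was taken from published annotation tables, mostly of genes that had changed in other samples of the same project. In maltose against cellobiose, 4 of the 17 were higher and 1 was lower (edgeR), where 12.5% and 9.05% of all genes were. Against trehalose 2 were higher and 1 was lower, beside 2.58% and 2.34% of all genes, and against sorbose 3 were higher and 1 was lower, beside 5.25% and 5.56%. NCU03098, of glycoside hydrolase family GH15, and *gh13-4* were among the higher genes in all 3 comparisons. *col-26* was higher against cellobiose and sorbose, and *gla-2* (NCU02583), which had its highest mean in maltose, against cellobiose. The single lower gene, 1 of 17 in each comparison, is NCU02478, annotated as an α-1,3-glucan synthase gene. The medians of their log2 fold changes were 0.35, 0.35 and 0.33, against 0.05, -0.02 and 0.02 for all genes and 1.96, 0.59 and 1.38 for the 6. Outside these 3 comparisons, NCU03098 also went the other way. It had its highest mean in mannose (151 ± 63.9 CPM, SD, n = 3), with 35.0 ± 14.4 CPM in maltose. It was lower in maltose than in mannose (log2 fold change -2.11 ± 0.29 SE, edgeR adjusted p = 1.15e-06) and xyloglucan (-1.21 ± 0.29, edgeR adjusted p = 0.000877).

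Of the list's enzyme genes, *gh13-4* (NCU06523), annotated as an α-glucosidase, was higher in maltose than in 5 of the 9 other sources. It stood at 16.1, 18.3 and 12.7 CPM in maltose, against 2.33, 2.72 and 2.05 CPM in cellobiose, a log2 fold change of 2.73 ± 0.22 (edgeR adjusted p = 3.38e-10). Its level was as high in mannose, at 15.2 ± 2.43 CPM, and in fructose, at 14.4 ± 0.618, which separates its order from that of the 4 genes highest in maltose. NCU08132, an α-1,3-glucan synthase gene 2992 bases from *gh13-1*, averaged 267 CPM in maltose and between 144.5 and 362 CPM over the carbon sources, and was called in maltose against no other source.

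The 6 transporter genes of the list shared no single order over the carbon sources. *hgt-1* (NCU10021), a glucose transporter gene, was higher in maltose than in 6 of the 9 sources and averaged 4968 ± 433 CPM there. It was not distinguished in maltose from sorbose (5644 ± 549) or cellobiose (4445 ± 125). Against trehalose (3292 ± 375) it did not pass either, at 1.51-fold (edgeR adjusted p = 0.0259). NCU05627 (*xyt-1*) and NCU04963 were each higher in maltose than in 6 sources and had their highest means in cellobiose, at 5556 ± 692 and 7257 ± 173 CPM. NCU04537 was higher in maltose than in 5 and had its highest mean there, at 105 ± 6.92 CPM, with 98.5 ± 5.31 CPM in sorbose. NCU12154, an annotated maltose permease, and NCU08858, an annotated α-glucoside transporter, were called in maltose against none of the 9 sources. NCU08858 had its highest mean in xyloglucan. NCU12154 was barely detected, with 13 to 49 reads per sample and means from 1.13 CPM in xyloglucan to 2.44 in avicel. Its variation over the carbon sources did not pass edgeR's F-test (adjusted p = 0.0115), so its values give no order of the sources. NCU12154, NCU08858, NCU02478, NCU03098 and *gla-2* were chosen for mention after their values were seen. The regulator gene *col-26* (NCU07788), which encodes a transcription factor, was higher in maltose than in 8 of the 9 sources, all but trehalose.

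**Figure D4:**
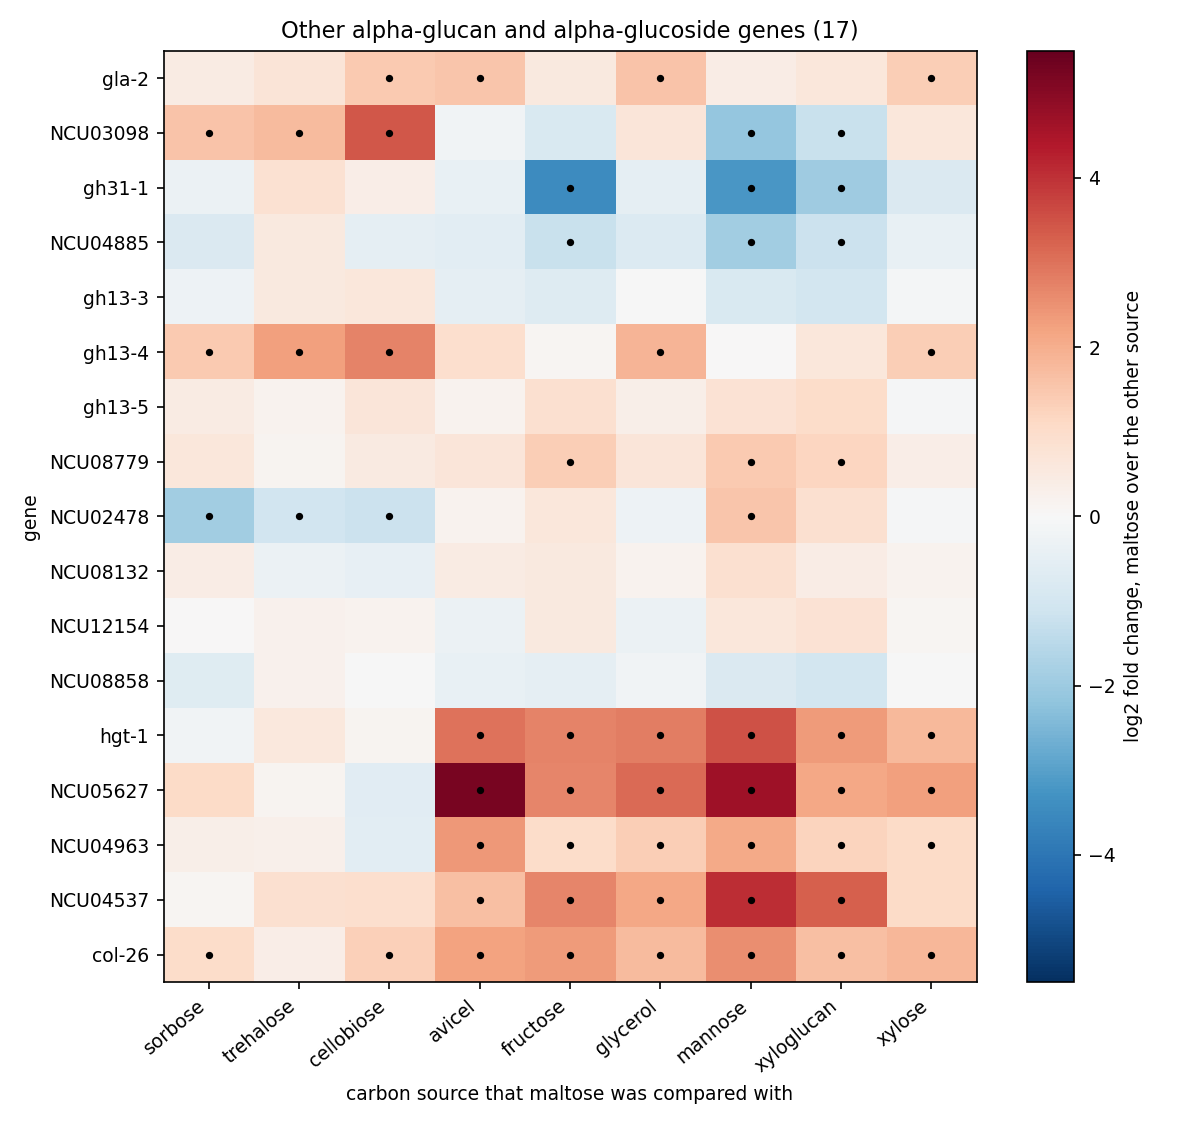
Log2 fold change in maltose over each of 9 other carbon sources (colour) for the 17 other genes of α-glucan and α-glucoside use; black dots mark genes past both thresholds in edgeR's test. The lowest 5 rows, the transporter genes *hgt-1*, NCU05627, NCU04963 and NCU04537 and the regulator gene *col-26*, hold most of the higher calls, with 8 of 9 for *col-26*.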

How the data were processed

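The authors mapped quality-filtered reads (FASTX-Toolkit) with TopHat2 2.0.4 to the predicted transcripts of *N. crassa* OR74A version 12 and counted reads per gene with HTSeq 0.6.0; the deposited values are these raw counts, 1 file per sample. The submitters' notes also name CASAVA 1.8 and DESeq2 1.10.1. Whether counting used strand is not given in the sources used here, so genes that overlap are uncertain. Reads outside genes (2.43% to 8.79%), ambiguous (1.44% to 2.14%) or mapped to several places (0.217% to 6.05%) stand as totals in the files and were left out of the library sizes.

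edgeR 4.0.16 in R 4.3.3 was used for all tests. After filterByExpr (8501 genes kept) and TMM scaling (factors 0.893 to 1.06), 1 quasi-likelihood model with a mean per carbon source was fitted to the 30 samples, grouped by their labels. The Benjamini-Hochberg adjustment ran over all genes tested in each comparison. Calls needed an adjusted p under 0.01 and over 2-fold difference, as in the study. Each SE was derived from the fold change and its F statistic. CPM and RPKM were computed here from the counts, RPKM with the gene span in RefSeq's NC12 table, which matched 9757 of 9758 identifiers. The scripts were tested on simulated data.

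The members and lists were chosen with earlier results of these data known. All 6 members are named. Further genes are the 3 most similar to each member and those of the list of 17 that were called higher in maltose against at least 5 sources or adjoin a member. Genes said above to be chosen after their values were seen are the exception. The symbols *gh13-1* and *gh13-2* are swapped in the study's text; RefSeq's are used. Replicate pairs of a carbon source differed by more than counting noise (chi-square at least 5.36 per degree of freedom). The labels do not say whether the triplicates, which the study calls biological, were separate cultures, so p-values measure the spread between these samples. Alternatives were DESeq2 1.42.0, no TMM, no filter, a replicate block, the percentage of reads outside genes as covariate, a fit of only the 2 groups, glmTreat and leaving out each replicate.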

Additional observations from a re-analysis of the deposited data

How the results depend on the processing

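Of 1050 log2 fold changes of the 6 genes under the alternatives, 1024 kept their direction and their side of the thresholds, 13 lost the call, 4 gained it and 9 changed sign. The 9 were all of *gh13-1*, which was called in neither comparison. In maltose against trehalose its log2 fold change was -0.0023 with the percentage of reads outside genes as covariate, -0.054 without maltose replicate 1, -0.0090 without maltose replicate 2 and -0.031 without trehalose replicate 2 (range -0.054 to 0.096 over the 6 fits that left out 1 replicate). In maltose against xylose it was 0.0081 without TMM, 0.010 with the covariate, 0.00089 with DESeq2, 0.073 without maltose replicate 3 and 0.11 without xylose replicate 1 (range -0.088 to 0.11). With glmTreat against a fold change of 2, a stricter test by construction, the count of members lower in maltose was 0 against avicel, 0 against cellobiose, 0 against mannose, 0 against sorbose, 0 against trehalose and 0 against xyloglucan. The count of members higher was then 0 in maltose against trehalose and 1 in trehalose against cellobiose. Without TMM the count lower in maltose than in cellobiose was 0, since *gh13-6* then lay just under 2-fold; the cause was not tested. With glmTreat the counts over all genes fell by more than 1.5 times in each comparison of 2 sources, for example to 470 higher and 316 lower in maltose against cellobiose, compared with 1062 and 769. In maltose against trehalose, 338 genes were higher and 122 lower without TMM, 141 and 118 in a fit of only the 2 groups, 141 and 116 without maltose replicate 2, and 145 were higher without trehalose replicate 2, compared with 219 and 199. Without TMM 3 of the 60 mean levels moved by more than 1 SD, with ratios to the reported levels of 0.894 to 1.05 over all 60. The replicate block changed no call of the 6 genes (*gh13-2* in maltose against cellobiose, 5.61). Whether equal replicate numbers pair the samples was not settled. Residuals around each carbon source's mean had an average r of 0.07 for equal numbers (-0.33 to 0.51) and of -0.04 for different ones. Residuals within a carbon source depend on each other, so these averages cannot exclude pairing. Except on avicel, cellobiose and xyloglucan, replicate 1 had the lowest percentage of reads outside genes. In sorbose it was 3.02% in replicate 1, against 8.61% and 8.79% in replicates 2 and 3. In cellobiose the replicates had 2.71%, 2.80% and 2.70%. With 3 replicates per carbon source, fold changes near 2 cannot be placed on either side of the threshold, and the levels of *gh13-2* and NCU08746 at their lowest rest on as few as 71 and 43 reads in a sample.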
